A study of Mus musculus with 38 samples.

Results

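Cultured VM-3055 cells grown with doxycycline (Dox) were compared with whole VM kidney tumours by RNAseq. The comparison rests on 4 libraries of the cells and on 3 libraries of tumours, from the mice numbered 3115, 3055 and 2459, and these 7 libraries were taken from the 38 of the series by their labelled genotype and Dox state alone. It asks which transcripts a tumour-derived line lost in culture, and which it gained, relative to tumour tissue. The series also holds cells and tumours of the MYC and VIM models, cells without Dox and 5 normal kidneys, 2 titled B6 and 3 titled KT, all of which served only as points of reference.

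Both groups are Vhl-/- and MYC + by their labels, and both were maintained on dox. In these mice tamoxifen activates a CreERT2 recombinase that deletes floxed Vhl, and Dox in the chow switches on a Tet-O-Myc transgene through rtTA. The promoter of Ksp-cadherin, the product of Cdh16, drives both CreERT2 and rtTA, so that the alleles are targeted to renal tubule epithelium and not to the vessels, fibroblasts and blood cells that a whole tumour also contains. The ages of the 3 tumour mice are not in the labels. The cells are a single line, made from a dissociated primary VM tumour and grown in medium with serum and Dox. The line and 1 of the tumour mice carry the number 3055, but the labels do not say that the tumour library of this mouse is the tumour from which the line came. They also do not say whether the 4 cell libraries are separate cultures, so p-values measure the spread between these libraries, which may be technical. VIM denotes mice that lack Ink4a/Arf as well as Vhl, and MYC denotes mice with Vhl intact. Growth in culture, passage as a line and separate library preparation cannot be told apart in this design.

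As background, renal tubule epithelium is divided into segments, of which the proximal tubule reclaims glucose, amino acids, phosphate and bicarbonate and runs on fatty acid oxidation under transcription factors such as HNF4A. VHL is the substrate recognition part of a ubiquitin ligase that marks the hypoxia-inducible factors (HIF) for destruction, so its loss leaves HIF active in normal oxygen, and MYC drives ribosome production and entry into the cell cycle. Tubule cells grown on plastic are known to lose transporters and other differentiated functions, and a culture of a single line lacks the vessels, matrix-producing fibroblasts and leukocytes of tissue.

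Levels are given in units of the deposited values, which are RSEM gene estimates after upper-quartile scaling to 1000. The cell libraries held 14.4 to 17.3 M estimated reads and the tumour libraries 11.3 to 13.6 M. A floor of 3 reads corresponded to 2.22 to 2.63 units in the cells and 3.09 to 4.0 units in the tumours, and a level under it was read as not detectable at this depth. Between 12315 and 12546 genes lay above the floor in the cell libraries and between 13365 and 13805 in the tumours. Changes are on the log2(units + 1) scale, positive where the cells were higher, and a gene passed the test when its adjusted limma p was under 0.05 and its change exceeded 1 in either direction. The tumours varied more than the cells, with a median SD of 0.30 against 0.07 on the log2 scale over the 9688 genes that averaged at least 50 units in both groups.

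Of 15292 genes tested, 1974 were higher in the cells (12.9%) and 4499 were lower (29.4%), so 69.5% of the 6473 passing genes were lower in culture. The median change of all genes tested was -0.30. These shares and this median are the background for the counts of each gene list below. The tilt towards lower values depended on the scaling. With TMM factors the median was -0.12, with 2431 genes higher and 4032 lower (62.4% of passing genes lower), and with quantile normalization it was 0.17, with 3309 higher and 3000 lower (47.6% lower). The groups did not overlap for 6325 of the 6473 passing genes, and for 10432 of the 15292 tested. In whole tissue, fewer cells of a type and less RNA per cell cannot be told apart, and this holds for each lower value below.

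**Figure D1:**
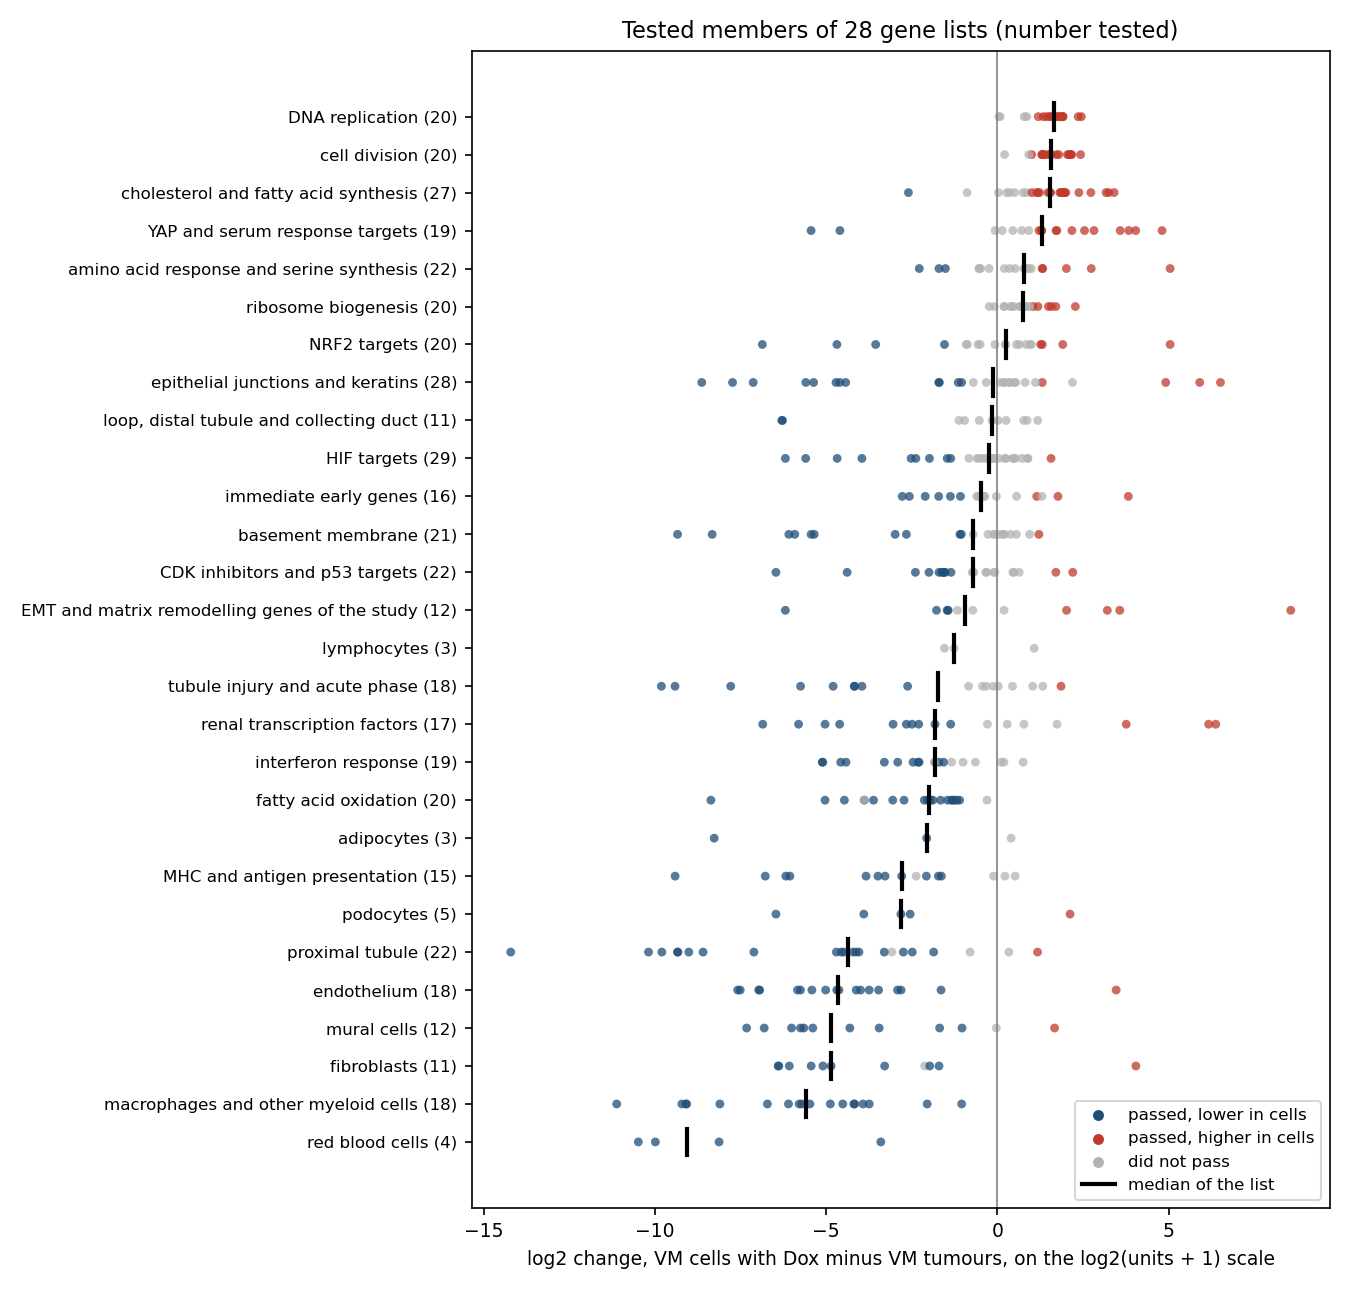
Changes of the tested members of 28 gene lists, with each point a gene, the x axis the log2 change of VM cells with Dox minus VM tumours on the log2(units + 1) scale, and a black bar at each list's median. The lists of other cell types and of the proximal tubule lie to the left, with medians of -4.35 for the proximal tubule and -5.59 for myeloid cells, while DNA replication, cell division and lipid synthesis lie to the right, with medians of 1.65, 1.55 and 1.54.

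The engineered genes were looked at first. Vhl (chr6:113573953-113581627 in mm9, plus strand) had 10.3, 14.5, 12.7 and 14.9 units in the cells, against 79.9, 40.2 and 40.7 in the tumours of mice 3115, 3055 and 2459. Normal kidney had 612 to 772 units. Every cell library was below every tumour. The change was -1.89 ± 0.35 (SE, adjusted p = 0.00188 by limma). With quantile normalization the change was -0.14 and did not pass. Myc (chr15:61816946-61821929, plus strand) had 338 to 413 units in the cells and 409, 462 and 801 in the tumours, and did not pass (change -0.48, adjusted p = 0.0952). Whether reads of the transgene are counted in Myc is not given in the sources used here. The VM cells without Dox, set against the same tumours, had a Myc change of 1.35, of the opposite sign. The output of the transgene itself was not tested. Cdkn2a, whose locus encodes p16Ink4a and p19Arf and is intact in the VM model, had 3473 to 4190 units in the cells and 3392 to 4347 in the tumours, and did not pass either (change -0.07, adjusted p = 0.622). Normal kidney had at most 3.80 units of it.

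Markers of the other cells of a tumour were largely gone from the culture. A gene at 0 in all 4 cell libraries was tested only if every tumour was above 0, so its change could only be negative. This limit applies to the counts of lower genes in every list below. For the endothelium, 17 of 18 marker genes were lower in the cells and 1 was higher, with a median change of -4.66 (-4.60 with genes at 0 in a whole group taken at their bound). Pecam1 had 0 to 1.75 units in the cells and 598, 91.8 and 148 in the tumours, and Cdh5, the cadherin of vessel walls, was at 0 in all 4 cell libraries and at 510, 74.2 and 155 units in the tumours (at least 93.7-fold lower). The marker that went the other way was Flt1, a receptor for VEGF, with 761 to 789 units in the cells and 170, 38.1 and 50.6 in the tumours (change 3.47 ± 0.45, adjusted p = 0.000273).

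For mural cells, which wrap the vessels, 10 of 12 markers were lower, Cnn1 was higher and Mcam did not pass. The call of Cnn1 (change 1.67) was lost with a pseudocount of 10 units, with weights for cells and tumours and without cell library 1 (change 1.49). Rgs5 was at 0 in the cells against 337, 80.4 and 147 units, and Pdgfrb had 0 to 1.70 units in the cells against 306, 71.1 and 60.4. For fibroblasts, 11 of 14 listed markers were tested, 9 were lower and 1, Col5a1, was higher. Of the 9, Thy1, Fap and Mfap5 were at 0 in all 4 cell libraries and could only come out lower. Fap had 5.33, 1.03 and 3.70 units in the tumours. Lum and Dpt, also at 0 in the cells, were not tested because the tumour of mouse 3055 had 0 units. Col1a1, a chain of type I collagen, had 1.48 to 2.55 units in the cells, at or under the floor, and 240, 235 and 243 in the tumours. Pdgfra did not pass, at 0 to 1.70 units in the cells and 38.6, 2.06 and 4.93 in the tumours, although it passed as lower without the tumour of mouse 3055 (change -2.89). The median changes were -4.85 for both lists (-3.99 for mural cells and -4.85 for fibroblasts with the bounds).

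All 18 markers of macrophages and other myeloid cells were lower, with a median of -5.59 (-5.65 with the bounds). The complement genes C1qa, C1qb and C1qc, which tissue macrophages express, were at 0 in all 4 cell libraries. C1qb had 1768, 345 and 338 units in the tumours, so it was at least 311-fold lower in the cells. Lyz2, lysozyme of myeloid cells, had 5539, 1325 and 2234 units in the tumours and at most 0.739 in the cells (change -11.11). The cells retained 331 to 379 units of Csf1r and 11.1 to 15.8 of Ptprc, against 448 to 1308 and 28.9 to 132 in the tumours. Csf1r did not pass without the tumour of mouse 3115 (change -0.61).

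All 4 red blood cell genes in the table were lower, with the haemoglobin chains Hba-a2, Hbb-b1 and Beta-s at 0 in the cells. Of the adipocyte genes, 3 of 6 were tested and 2 were lower, Fabp4 and Adipoq. Fabp4 was at 0 in the cells and at 860, 154 and 218 units in the tumours. Normal kidney had 451 to 1147 units of Fabp4 but 0 of Adipoq, so Fabp4 is not a marker of adipocytes alone here. Adipoq had 14.6, 1.03 and 2.47 units in the tumours. Its call was lost in several settings, among them quantile normalization and weights for cells and tumours. Lymphocyte markers were near 0 in both groups: the 3 of 16 listed that could be tested, Cd4, Cd79a and Igj, did not pass (adjusted limma p from 0.0813 to 0.0980), and the summed level of the list was at most 3.69 units in the cells and 3.70 to 50.6 in the tumours. With the tumour of mouse 2459 left out, the filter admitted more of the list and 4 were lower. Among the podocyte genes, 4 of 5 tested were lower, and Podxl, a sialomucin of apical membranes, was higher, with 4160 to 4427 units in the cells against 1085, 663 and 1338.

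The summed levels of these lists also separated the tumours from each other, although in the cells Flt1 made most of the endothelial sum and Col5a1, at 880 to 1014 units, most of the fibroblast sum. The endothelial list summed to 6004 units in the tumour of mouse 3115, 1125 in that of mouse 3055 and 1816 in that of mouse 2459, against 879 to 921 in the cells, and the fibroblast list to 7262, 856 and 1351 against 980 to 1140. The myeloid list summed to 16257, 5100 and 7003 units against 468 to 532, and the red cell list to 12687, 1073 and 1554 against 0.851 to 4.43. The tumour of mouse 3115 was the highest of the 3 for each of these lists. Without it 17 endothelial, 9 mural, 9 fibroblast and 17 myeloid markers were lower. The part of these cells in the other results was not tested.

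**Figure D2:**
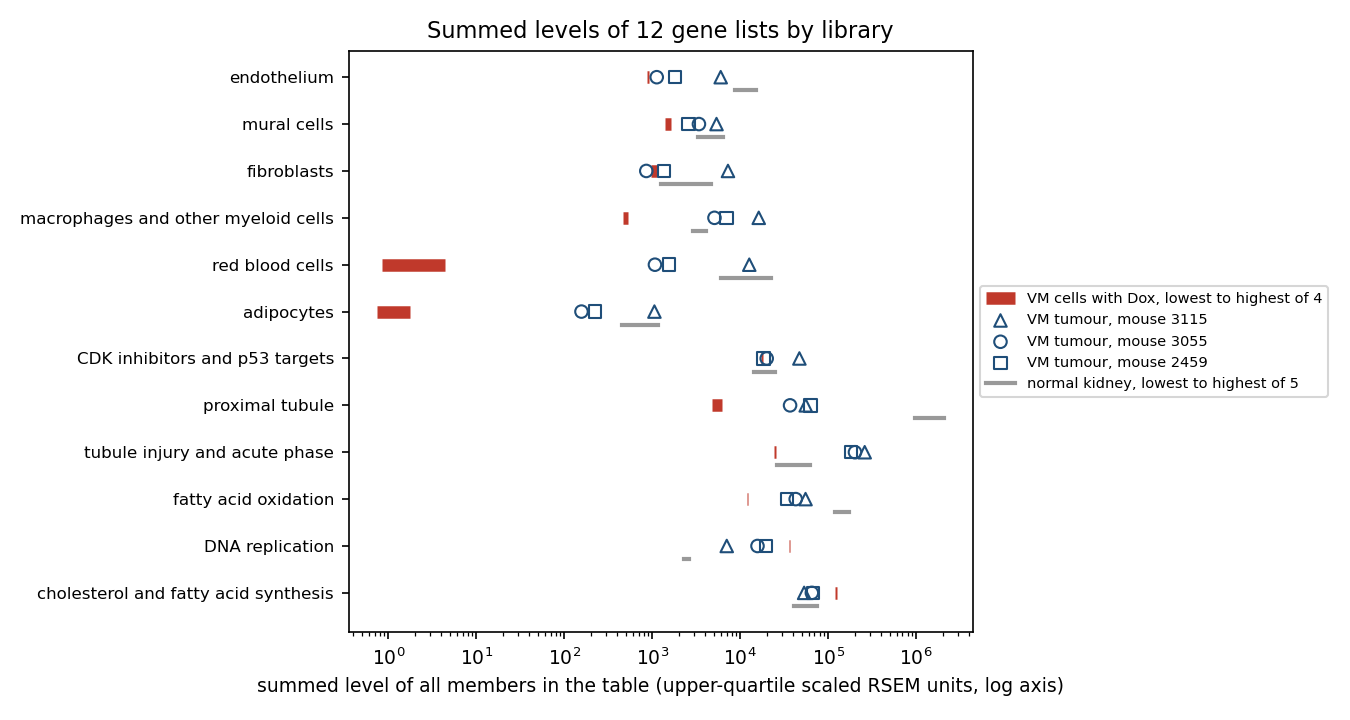
Summed level of all members of 12 gene lists, on a log axis in upper-quartile scaled RSEM units, with a red bar from the lowest to the highest of the 4 cell libraries, an open symbol for each VM tumour and a grey bar for the range of 5 normal kidneys. The tumour of mouse 3115 has the highest endothelial, fibroblast, myeloid and red cell sums, and the proximal tubule sum falls from 967614 to 2100636 units in kidney to 36921 to 63378 in tumours and 4842 to 6286 in cells.

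The epithelial genes gave the label check for the cells themselves. Cdh16, whose promoter drives the engineered alleles, had 3464 to 3512 units in the cells against 11336, 14725 and 8544 in the tumours (change -1.69 ± 0.17, adjusted p = 6.78e-05). Pax8 (chr2:24276071-24331119, minus strand), a factor that defines the renal epithelial lineage, had 2033, 1894, 1940 and 1913 units in the cells and 2606, 2814 and 1825 in the tumours, and did not pass (change -0.29, adjusted p = 0.116). Pax2, which is active in the developing nephron, was higher in the cells at 106 to 137 units, against 3.99, 0 and 0 in the tumours (change 6.17 ± 0.58, adjusted p = 5.40e-05). Normal kidney had 72.3 to 151 units of it.

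The proximal tubule programme, already reduced in the tumours, was reduced further or absent in the culture. Of 24 listed genes 22 were tested, 18 were lower and 1 was higher, with a median of -4.35 (-4.08 with the bounds) against -0.30 for all genes, and 13 were at 0 in all 4 cell libraries. Of these 13, Slc22a6 and Slc13a3 were not tested because 1 tumour was at 0, and the others could only come out lower. Kap, among the 18, had 3.99, 1.03 and 3.70 units in the tumours, at or under the floor. The summed level of the list was 967614 to 2100636 units in normal kidney, 55624, 36921 and 63378 in the tumours and 4842 to 6286 in the cells.

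Transporters and enzymes of the segment followed. Slc34a1, the phosphate transporter of the brush border, was at 0 in the cells against 212, 1605 and 2051 units in the tumours. Slc3a1, which carries cystine and basic amino acids, had 2.95 to 8.14 units in the cells against 4603, 2603 and 5329 (757-fold, change -9.34). Pck1, the enzyme that commits carbon to glucose synthesis, was at 0 against 373, 858 and 816 units, and Slc4a4, the bicarbonate exit transporter, had 250 to 303 units against 11110, 2754 and 9324.

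Among the 10 largest falls were further genes that kidney tubules express at high levels. Slc27a2, which imports and activates fatty acids, Pth1r, the receptor for parathyroid hormone, Iyd, which recovers iodide, and Spink3, a protease inhibitor, were each at 0 in all 4 cell libraries. In the tumours they ranged from 1178 units for Pth1r to 12520 units for Spink3, so that the fall was at least 873-fold for Slc27a2 and at least 2922-fold for Spink3. Aldh1l1, a folate enzyme, and Apob, an apolipoprotein, had at most 0.877 units in the cells.

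The uptake receptor of the same segment did not follow this pattern. Lrp2, megalin, had 5272, 4856, 4718 and 3846 units in the cells against 4473, 2757 and 4021 in the tumours, with overlapping groups and no pass (change 0.34, adjusted p = 0.133), while normal kidney had 33898 to 53957. Its partner Cubn did not pass either (change -0.79). Aqp1, a water channel, was the 1 listed gene higher in the cells, at 213 to 256 units against 190, 134 and 44.4 (change 1.18, adjusted p = 0.0432 by limma). It did not pass when any 1 cell library, or the tumour of mouse 3055 or 2459, was left out.

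For the loop of Henle, distal tubule and collecting duct, 11 of 21 listed genes were tested and 2 passed, both lower. With quantile normalization 3 others were higher, and the count of lower genes was 5 without the tumour of mouse 3055 and 4 without that of mouse 2459. Ppp1r1a had 19.3 to 27.3 units in the cells against 2546, 3097 and 909, and Atp6v0d2, a proton pump subunit, was at 0 against 49.3, 105 and 85.1. The aquaporin Aqp2 and the channel subunits Scnn1b and Scnn1g, which mark the collecting duct, were at 0 in all 7 libraries.

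Renal transcription factors moved in both directions: of 20 listed, 17 were tested, 10 were lower and 3 were higher, with a median of -1.82. Hnf4a (chr2:163332544-163398646, plus strand), which directs proximal tubule identity, had 25.9, 23.8, 29.7 and 18.4 units in the cells and 1830, 4633 and 2861 in the tumours, a 127-fold difference of means (change -6.85 ± 0.31, adjusted p = 1.69e-06). The transcript 0610008F07Rik lies on the opposite strand of Hnf4a, and whether the counting used strand is not stated. Esrrg, an orphan receptor of oxidative metabolism, fell from 578 to 656 units in the tumours to 17.9 to 28 in the cells. The 3 higher factors were Pax2, Osr2 and Sim1, all at or under the floor in the tumours.

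**Figure D3:**
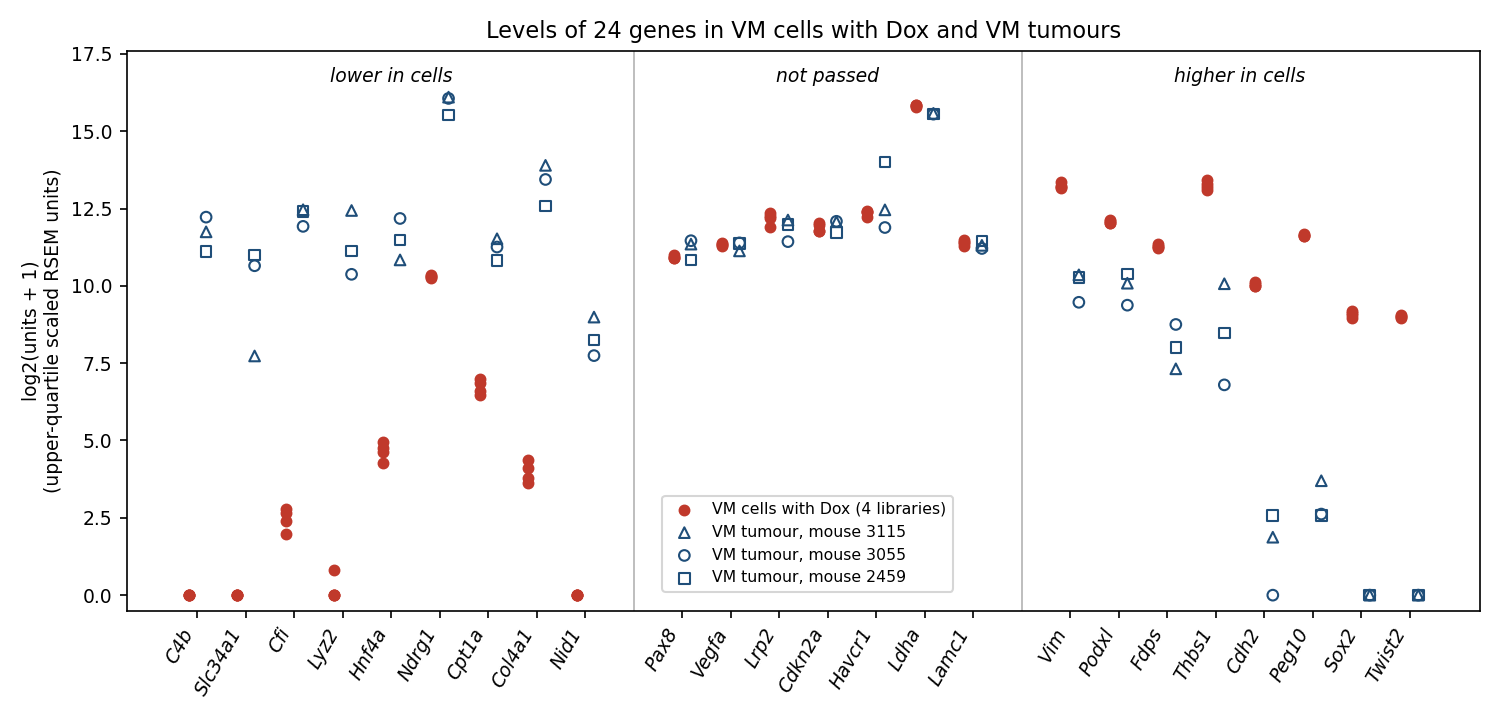
Levels of 24 genes on the log2(units + 1) scale, with red points for the 4 libraries of VM cells with Dox and open blue symbols for the 3 VM tumours by mouse. C4b, Slc34a1 and Nid1 are at 0 in all 4 cell libraries, Sox2 and Twist2 are at 0 in all 3 tumours, and the genes in the middle panel, among them Pax8, Lrp2 and Cdkn2a, did not pass.

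Among the genes of tubule injury and the acute phase, 18 of 20 were tested, 9 were lower and 1 was higher, with a median of -1.73. Cfi (chr3:129539655-129578246, plus strand), complement factor I, had 2.96, 5.96, 4.24 and 5.26 units in the cells and 5636, 3880 and 5419 in the tumours (1081-fold, change -9.81 ± 0.26, adjusted p = 3.05e-07). Cfb, an activating component of the alternative pathway, had 0.739 to 3.51 units against 1380, 1459 and 2440 (change -9.41), and C4b, of the classical pathway, which is not on that list but was among the 10 largest falls, was at 0 in the cells against 3432, 4773 and 2200 (at least 1318-fold lower). Normal kidney had 70.9 to 262 units of C4b.

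C3, the central complement component, was kept at a lower level, with 261 to 268 units in the cells against 6423, 17995 and 3482 (35.1-fold). Fga, a fibrinogen chain, and Trf, transferrin, which are not on the list and were chosen after their values were seen, were at 0 in the cells; Fga ranged widely in the tumours, at 816, 9044 and 477 units. Spp1 (chr5:104864137-104870069, plus strand), osteopontin, had 9732 to 10268 units in the cells against 235376, 168543 and 147825, an 18.5-fold difference.

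Markers of injured tubule were divided. Havcr1, the kidney injury molecule, had 4841, 5459, 5297 and 5307 units in the cells and 5619, 3782 and 16417 in the tumours and did not pass (change -0.43, adjusted p = 0.397), against at most 336 units in normal kidney. Cd24a, a surface protein of tubular progenitors and injured tubule, was higher, at 4224 to 4712 units against 957, 794 and 2628. Clu, Sox9 and Lcn2 did not pass.

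Genes of fatty acid oxidation were lower as a group: 18 of 20 were lower and 2 did not pass, with a median of -1.99. Cpt1a (chr19:3323301-3385732, plus strand), the gate for entry of fatty acids into mitochondria, had 127, 88.5, 95.9 and 114 units in the cells and 2939, 2442 and 1802 in the tumours (22.5-fold, change -4.46 ± 0.20, adjusted p = 1.45e-06). Ppara, the receptor that switches the pathway on, had 2.55 to 7.02 units against 165, 122 and 290. The peroxisomal enzyme Ehhadh had 0.739 to 2.63 units against 533, 685 and 975, and Acadm, the medium-chain dehydrogenase, 1163 to 1220 against 12738, 11674 and 6681. Hadha, a subunit of the mitochondrial trifunctional protein, did not pass, with 1975 to 2036 units against 2788, 2526 and 2128.

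Genes of cholesterol and fatty acid synthesis went the other way, with 19 of 27 higher, 1 lower and a median of 1.54. Fdps, which makes farnesyl diphosphate, had 2454, 2387, 2611 and 2510 units in the cells and 158, 430 and 258 in the tumours (8.83-fold, change 3.25 ± 0.29, adjusted p = 3.66e-05). Cyp51, which demethylates lanosterol, had 9676 to 10064 units against 602, 1225 and 1764 (8.25-fold). The exception was Scd1, a desaturase, with 608 to 695 units against 5997, 2803 and 3529, while its paralog Scd2 did not pass (change 0.37).

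Amino acid and redox genes were mixed. Of 22 genes of the amino acid response and serine synthesis, 5 were higher and 3 lower, and of 20 NRF2 targets, 4 were higher and 4 lower, with medians of 0.79 and 0.24. With TMM factors 9 and 7 of them were higher. Slc7a11, the cystine importer, is on both lists and had 449 to 516 units in the cells against 9.32, 9.28 and 29.6 (30.4-fold, change 5.05). Mthfd2, of mitochondrial folate metabolism, was 5.83-fold higher and G6pdx, the first enzyme of the pentose phosphate route, had 2431 to 2579 units against 543, 818 and 647. Cth, which makes cysteine from cystathionine, had 171 to 219 units against 493, 1059 and 1551. Ephx1, a detoxifying epoxide hydrolase, had 5.11 to 6.79 units against 4129, 153 and 899.

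HIF targets as a list sat near the middle of all genes: 9 of 29 tested were lower, 1 was higher and 19 did not pass, with a median of -0.23 against -0.30. Vegfa had 2524 to 2659 units in the cells and 2240, 2680 and 2634 in the tumours (change 0.05, adjusted p = 0.661), and Ldha, Slc2a1, Pgk1, Hk2 and Pfkfb3 also did not pass. With quantile normalization Ldha passed as higher (change 1.48). A smaller set was far lower. Ndrg1 (chr15:66760883-66801202, minus strand), a gene of stress and differentiation, had 1288, 1212, 1290 and 1250 units in the cells and 70237, 68262 and 47164 in the tumours (49.1-fold, change -5.59 ± 0.15, adjusted p = 3.05e-07). Angptl4, an inhibitor of lipoprotein lipase, had 24.4 to 34 units against 3316, 418 and 313, and Bnip3, of mitochondrial turnover, 2691 to 3165 against 15691, 10235 and 9792. Car9, a carbonic anhydrase much used as a HIF marker, did not pass: it had 258 to 302 units in the cells and 1652 in the tumour of mouse 3055, against 46.6 and 43.2 in the other two. Without the tumour of mouse 3055 it passed as higher in the cells (change 2.62). Ccnd1 was the member higher in the cells, at 851 to 918 units against 447, 91.2 and 647 (change 1.57, adjusted p = 0.0412 by limma), and it did not pass when any 1 cell library or the tumour of mouse 3055 was left out.

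Basement membrane genes were split by chain. Of 21 members, 10 were lower, 1 was higher and 10 did not pass, with a median of -0.70. With quantile normalization 6 were lower and 2 were higher, and with TMM factors 7 were lower and 2 were higher. Col4a1 (chr8:11198423-11312826, minus strand) and Col4a2 (chr8:11312805-11449287, plus strand) encode the main type IV collagen chains from opposite strands and overlap at their starts. Col4a1 had 16.3, 19.6, 12.7 and 11.4 units in the cells and 15230, 11102 and 6147 in the tumours (722-fold, change -9.34 ± 0.32, adjusted p = 5.19e-07), and Col4a2 had 72.8 to 120 against 10330, 5806 and 3731 (73.6-fold). Nid1, nidogen, which links collagen IV to laminin, was at 0 in the cells against 507, 213 and 302 units.

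The laminin chains did not move together. Lamc1 had 2525 to 2850 units in the cells and 2535, 2364 and 2798 in the tumours (change 0.07, adjusted p = 0.526), and Lamb1, Lama5 and Hspg2, the gene of perlecan, also did not pass. Lama1 was lower (change -1.09, adjusted p = 0.000195 by limma, but -0.90 and within the fold limit with TMM factors), and Lama2 and Lama4, laminin chains of muscle and vessels, were at 0 in the cells. The 1 higher member was Lamb3 (change 1.21, adjusted p = 0.0261 by limma), which did not pass when any 1 cell library, or the tumour of mouse 3115 or 3055, was left out.

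The epithelial junction and keratin list had 28 members, of which 12 were lower, 4 were higher and 12 did not pass, with a median of -0.12. That sign depended on the scaling, with a median of 0.02 with TMM factors and of 0.63 with quantile normalization, where 8 were higher. Cdh1, E-cadherin, did not pass, with 523, 475, 504 and 471 units in the cells and 329, 274 and 878 in the tumours. Cldn3 and Cldn1, claudins of tight junctions, were lower: Cldn3 had at most 0.849 units in the cells against 485, 182 and 1102, and Cldn1 62.8 to 78.3 against 4679, 1662 and 5393. Krt8 and Krt18, the paired keratins of simple epithelium, had 6.14 to 13.3 and 2.55 to 11.4 units against 46.4 to 1578 and 123 to 650.

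Other epithelial genes were higher in the culture. Epcam (chr17:88035319-88050446, plus strand), an adhesion molecule, had 204, 195, 228 and 212 units in the cells and 6.66, 5.15 and 6.17 in the tumours (35-fold, change 4.92 ± 0.23, adjusted p = 1.96e-06), against 758 to 1996 in normal kidney. Krt7, a keratin of ducts, had 295 to 331 units against 13.3, 0 and 8.63, and Esrp1, a splicing factor that maintains epithelial isoforms, had 242 to 275 against 0, 1.03 and 9.86. The fourth was Tjp1, ZO-1, at 2702 to 2811 units against 1113, 1067 and 1146.

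Of the 12 genes of epithelial-mesenchymal transition (EMT) and matrix remodelling that the study followed, 4 were higher in the cells, 4 were lower and 4 did not pass. The study took Lox, Loxl1, Loxl2 and Has2 from differences between its VM and VIM cell lines, so their directions are not independent evidence. Cdh2, N-cadherin, had 1028, 1121, 1059 and 1025 units in the cells and 2.66, 0 and 4.93 in the tumours (418-fold, change 8.57 ± 0.54, adjusted p = 7.09e-06), against 60.7 to 119 in normal kidney. Vim, vimentin, had 9240 to 10524 units against 1309, 707 and 1238, and the transcription factors Snai1 and Zeb1 rose by 3.58 and 2.02 on the log2 scale. Zeb2, Lox, Loxl1 and Loxl2 were lower, Lox with at most 0.877 units in the cells against 241, 39.2 and 62.9. Snai2, Twist1 and Has2 were at or under the floor in the cells.

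Genes that respond to YAP and to serum were higher: 12 of 19 tested rose, 2 fell and the median was 1.30. Thbs1, thrombospondin, had 8821, 10850, 9480 and 10071 units in the cells and 1072, 110 and 354 in the tumours (19.1-fold, change 4.81 ± 0.63, adjusted p = 0.000300). Cyr61, a matricellular YAP target, had 6665 to 7706 against 948, 1505 and 1236. Myl9 and Tpm2, of contractile filaments, were the 2 lower members, with Myl9 at 0.739 units or less in the cells.

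Immediate early genes were divided, with 6 of 16 lower and 3 higher and a median of -0.47, against -0.30 for all genes. These counts were not far from the shares over all genes tested, of which 29.4% were lower and 12.9% higher. Fos had 41.4 to 55.3 units in the cells against 230, 361 and 446, and Jun had 718 to 871 against 3583, 2484 and 1946. The related Fosl1 was higher, at 175 to 202 units against 3.20, 5.01 and 95.7.

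Genes of proliferation were higher in the culture, although the tumours already stood far above normal kidney. Of 20 cell division genes 18 rose and 2 did not pass, with a median of 1.55, and of 20 DNA replication genes 16 rose and 4 did not pass, with a median of 1.65. Top2a, the topoisomerase of dividing cells, had 10428, 10135, 10862 and 10448 units in the cells, 1193, 3034 and 4458 in the tumours and 30.7 to 65.1 in kidney. Mcm3, of the replicative helicase, was 4.41-fold higher. The tumour of mouse 3115 had the lowest sum of both lists, and without it 14 and 11 members rose.

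Ribosome biogenesis genes, which MYC drives, rose for 6 of 20 members, and 14 did not pass, with a median of 0.75. Tcof1, needed for ribosomal RNA transcription, had 3672 to 4547 units in the cells against 545, 1063 and 1007, and Ncl, nucleolin, 36935 to 39880 against 17887, 21960 and 16259. Npm1 did not pass, with 17336 to 20236 units against 18890, 14730 and 15642. When the VM cells without Dox were set against the same 3 tumours, 7 of the 20 were lower, and 5 of the cell division genes and 3 of the replication genes were higher. That comparison shares the tumours with the one described here.

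The cyclin-dependent kinase inhibitors and p53 targets had 10 of 22 lower and 2 higher, and here the tumour of mouse 3115 stood apart. The list summed to 47131 units in that tumour, 20022 and 18341 in the others and 17165 to 18299 in the cells. Cdkn1a, p21, had 525 to 563 units in the cells and 5929, 265 and 449 in the tumours, so the cells lay between the tumours and the gene did not pass (change -0.70, adjusted p = 0.525). Zmat3 and Phlda3 were also highest in the tumour of mouse 3115, at 7840 and 831 units. The tumours of mice 3055 and 2459 had 773 and 566 units of Zmat3 and 9.28 and 21 of Phlda3, below the 857 to 953 and 78.9 to 91.9 of the cells. Neither passed, but without the tumour of mouse 3115 Phlda3 passed as higher in the cells (change 2.57). Eda2r passed as lower, with 2.55 to 6.14 units in the cells and 1848, 20.6 and 38.2 in the tumours. It did not pass without cell library 3 (change -4.17). Cdkn1c, p57, had at most 3.51 units in the cells against 945, 17.5 and 182. Plk2 and Gdf15, a kinase and a secreted stress factor, were higher in the cells.

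Antigen presentation and interferon genes were lower or did not pass. Of 15 MHC and antigen presentation genes 11 were lower, with a median of -2.79, and of 19 interferon genes tested 12 were lower, with a median of -1.83. The class II genes H2-Aa, H2-Ab1 and H2-Eb1, which macrophages, dendritic cells and B cells carry, were at 0 in the cells, and H2-Ab1 had 1494, 343 and 607 units in the tumours. The class I genes were reduced and kept, with H2-K1 at 929 to 1071 units against 5782, 3246 and 1830, and B2m, their light chain, did not pass (change 0.22). Psmb8, an immunoproteasome subunit, was at 0 in the cells against 153, 63.9 and 28.4 units. Irf7, which amplifies the interferon response, had at most 5.11 units against 212, 78.3 and 65.4. The tumour of mouse 3115, which had the highest myeloid sum, also had the highest level of H2-Ab1, H2-K1, B2m, Psmb8 and Irf7, and the part of myeloid cells in these values was not tested. With quantile normalization 7 interferon genes were lower and 2 were higher.

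The largest rises were in genes that were close to silent in the tumours. Sox2 (chr3:34548927-34551383, plus strand), a factor of stem and neural progenitor cells, had 586, 558, 497 and 527 units in the cells and 0 in all 3 tumours and all normal kidneys, at least 136-fold higher (change 9.08 ± 0.24, adjusted p = 3.05e-07). It lies inside the transcript Sox2ot on the same strand. Twist2 (chr1:93698038-93744605, plus strand), a mesodermal factor, had 497 to 530 units against 0 in the tumours (at least 129-fold). Peg10 (chr6:4697306-4710514, plus strand), an imprinted gene derived from a retrotransposon, had 3101 to 3306 units against 12, 5.15 and 4.93, and Bcat1, which starts the breakdown of branched-chain amino acids, 1905 to 2131 against 1.33, 6.19 and 4.93.

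Further members of the 10 largest rises were Cdh2, Sox11, Dsg1a, Gli3, Iapp and Lipg. Sox11, a fetal factor related to Sox2, had 799 to 949 units in the cells and at most 2.47 in the tumours, and Gli3, a mediator of hedgehog signals, 690 to 727 and at most 3.99. Dsg1a, a desmosomal cadherin, and Iapp, the islet peptide amylin, had 426 to 485 and 913 to 1048 units. Iapp overlaps Slco1a5 on the other strand. Chosen after the values were seen, the developmental genes Shox2, Wnt4 and Hmga2 and the imprinted Peg3 showed the same pattern, with Shox2 at 0 in all 3 tumours and at 148 to 174 units in the cells.

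Counted over the whole table by levels alone, 333 genes lay at or under the floor in all 4 cell libraries and at 50 units or more in all 3 tumours, and 145 of them were at 0 in every cell library. Normal kidney had at least 50 units of 271 of the 333 in all 5 libraries, and VM cells without Dox were at or under the floor in all 4 libraries for 230 and reached 50 units in all 4 for none. The VIM cells with Dox were at or under the floor for 236 and the MYC cells with Dox for 116. The floor falls with depth, so these counts are not on equal terms. It was 1.97 to 2.42 units in the VIM cells, 1.57 to 1.68 in the MYC cells and 1.16 to 2.65 in the VM cells without Dox. The matching shares over all genes were not counted. A level at or under the floor in all 3 tumours and of 50 units or more in all 4 cell libraries was found for 60 genes. Of these, 14 were at 0 in every tumour and 25 were at or under the floor in every kidney. Of these 60, 50 were at 50 units or more in all VM cell libraries without Dox, 29 in all VIM cells and 33 in all MYC cells with Dox. The tumour of mouse 3055, which shares its number with the line, had 33 of the 60 at 0. All 60 were at or under the floor in it by the way they were chosen. The count at 0 was not made for each of the other tumours, so it says nothing particular to mouse 3055.

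The tumours differed in how near they stood to the cells. Over 13335 genes, the Pearson correlation of log2 levels with the mean of the cells was 0.642 for the tumour of mouse 3115, 0.737 for that of mouse 3055 and 0.720 for that of mouse 2459; these are correlations across genes, which are not independent replicates. More than a 2-fold difference from the cells was seen for 52.1%, 42.0% and 44.2% of the genes. Among the passing genes, the tumour of mouse 3055 was the nearest to the cells for 44.3%, that of mouse 2459 for 34.5% and that of mouse 3115 for 21.3%. The same order held for the endothelial, fibroblast, myeloid and red cell sums, with mouse 3055 lowest and mouse 3115 highest. It did not hold for the mural sum, at 5379, 3395 and 2578 units for mice 3115, 3055 and 2459. Nor did it hold for the lymphocyte sum, at 50.6, 8.25 and 3.70 units, where mouse 2459 was also lowest. The part of any of these cells in the order was not tested.

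To see which of these changes were particular to the VM line, the change from tumours to cells was compared with that of the VIM and MYC models by interaction. Of 16946 genes, 2194 differed between VM and VIM (12.9%), with 1257 higher and 937 lower in VM, and 2954 between VM and MYC (17.4%), with 1163 higher and 1791 lower. When cells and tumours were given weights of their own, since tumours vary more, these counts were 1033 and 1268. Of the 60 cell division, DNA replication and ribosome biogenesis genes, 0 passed in either comparison by limma, with or without the weights, and 4 had an unadjusted p under 0.05 against VIM and 8 against MYC (5 and 8 with the weights). At an adjusted p under 0.05 without the fold limit, 2 differed from VIM and 5 from MYC. Their differences ranged from -1.15 to 0.98 against VIM and from -0.95 to 0.86 against MYC. Of the 28 epithelial genes, 13 differed from VIM, 12 of them higher in VM, and 17 differed from MYC, 10 of them higher.

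The VM change differed from both other models in the same direction for 913 genes (358 with the weights), and 25 of the genes named here were among them (20 with the weights). Col4a1 was the clearest of the lower ones: the VIM cells had 1728 to 1980 units and the MYC cells 2881 to 3007, against 11.4 to 19.6 in the VM cells, so that the change in VM minus that in VIM was -8.32 ± 0.38 (adjusted p = 1.57e-10), and minus that in MYC -7.45 ± 0.41 (adjusted p = 1.47e-09). Lox, which crosslinks collagen, rose in culture in the other models, with 1988 to 2226 units in the VIM cells and 1213 to 1703 in the MYC cells. Acta2, the actin of smooth muscle and myofibroblasts, had 441 to 615 units in the VIM cells and 15668 to 18453 in the MYC cells, against at most 1.48 in the VM cells. Snai2, Twist1 and Has2, which were at or under the floor in the VM cells, had 27.6 to 35.4, 61 to 75.1 and 455 to 564 units in the VIM cells. The study picked Lox and Has2 from differences between the VM and VIM cell lines, and it reported Snai2 and Twist1 as higher in the VIM line. The differences of these genes from VIM are therefore not independent evidence.

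The epithelial genes Epcam, Krt7 and Esrp1 were on the other side. Krt7 had at most 2.77 units in the VIM cells and 1.09 in the MYC cells, and its levels reached 678 units in VIM tumours and 438 in MYC tumours, so that the difference between the models lay in the tumours as well as in the cells. Sox2 had 5.25 to 13.9 units in the VIM cells and 1.09 to 3.79 in the MYC cells, against 497 to 586 in the VM cells. Peg3 and Iapp had at most 6.12 and 5.98 units in the cells of either other model, and Dsg1a at most 5.98.

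**Figure D4:**
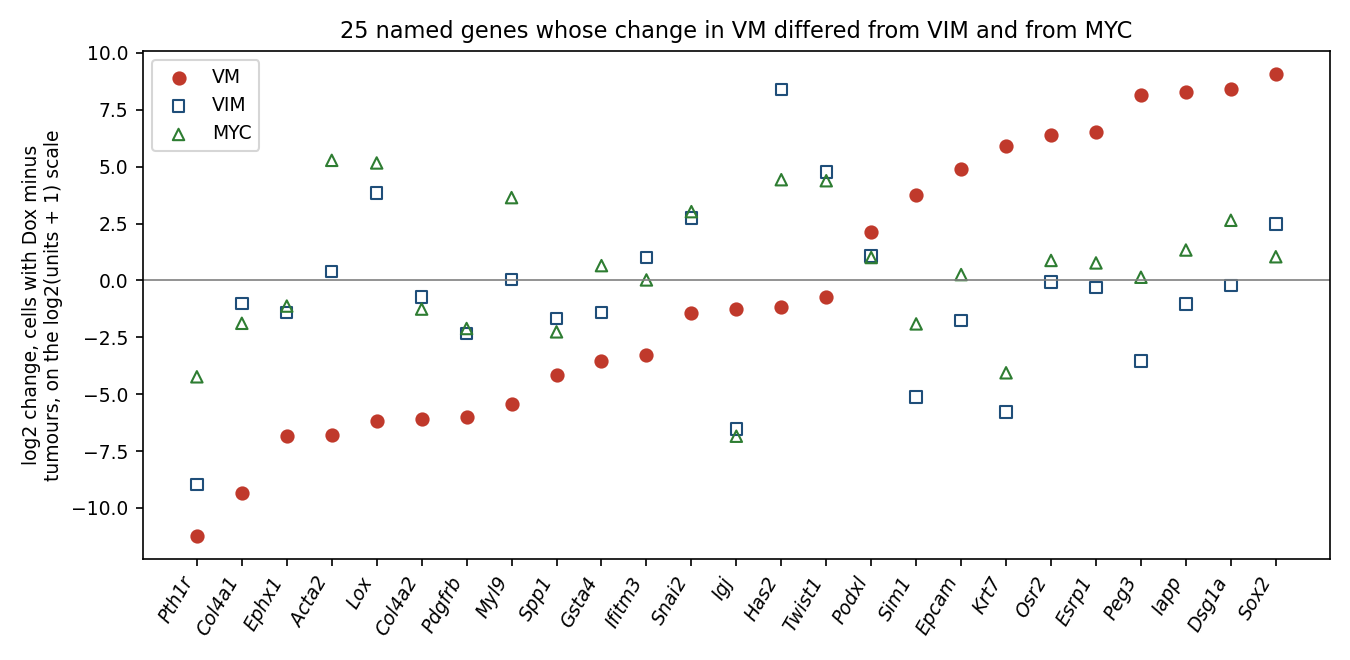
Change from tumours to cells with Dox in the VM, VIM and MYC models for the 25 named genes whose VM change differed from both other models in the same direction, on the log2(units + 1) scale. Red points show VM, blue squares VIM and green triangles MYC; Col4a1, Ephx1 and Lox lie lower in VM, and Krt7, Esrp1, Peg3 and Sox2 lie higher.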

How the data were processed

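The authors deposited a normalised signal per gene for 38 libraries: RNA prepared with a TruSeq Stranded mRNA kit was sequenced in pairs, aligned to mm9 with MapSplice, handled with Picard 1.64 and SAMtools, assigned to UCSC knownGene models with RSEM, and scaled to an upper quartile of 1000. Reads shared by near-identical genes, such as Hbb-b1 and Beta-s, leave their separate levels uncertain. The worth of 1 read was taken from the lowest values, and 94.6% to 95.9% of values under 20 reads were then whole within 0.02 reads. Floors cover counting error only. The variance between libraries over that expected from reads alone had a mean over genes of 2.16 to 4.33 in the cells and 77.7 to 113 in the tumours. The medians over genes were 0.78 to 1.36 and 14.35 to 22.22. No library is thus a copy of another, but the ratio cannot tell separate cultures from repeat preparations of 1 culture. By the means, cell libraries 1 and 2 (2.39) and 3 and 4 (2.16) lay nearer to each other than the other pairs did (3.65 to 4.33). The reason was not tested, and the 4 were treated as equal replicates.

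A gene entered the test if at least 3 of the 7 libraries had a value above 0, or 2 where a tumour was left out. The test was limma (version 3.58.1, under R 4.3.3) with a pseudocount of 1 unit on the log2 scale, moderated with a trend, two-sided, with Benjamini-Hochberg adjustment over all genes tested. Folds are ratios of group means, and a fold against a group at 0 in every library was computed against that group's highest floor and is a lower bound. Interactions used the cells with Dox and the tumours of the 3 models, with the 2 MYC tumour libraries of mouse 2983 averaged first. The procedure was tested on simulated data. Of the alternatives, edgeR 4.0.16 on recovered reads (2251 genes higher and 4134 lower among 15291) and the weights in the interactions were added after seeing the data.

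The members, the 28 gene lists and the tests were chosen with earlier results of these data known. By rule, 126 genes were named: the engineered genes, the 12 genes of the study, the 10 strongest passing changes each way without overlap and with 50 units or more in the higher group, and from each list up to 3 passing members and the highest that did not pass. A further 29 genes were chosen after their values were seen, as were the other list members given with values, for example Pecam1, Flt1 and Top2a. Some of these genes are not reported here. Positions are from the NCBIM37 (mm9) annotation.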

Additional observations from a re-analysis of the deposited data

Results flagged for a closer look

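Among the named genes, 1 library stood apart within its group by Dixon's rule, which chance meets in about 1 in 20 groups: cell library 3 had 78.9 units of Phlda3 against 90.9 to 91.9 in the other 3, a gap of 0.921 of the whole range. The tumour groups of 3 were too small for the rule.

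For 25 named genes the change from tumours to cells in VM differed from that in both other models by the interaction test. The differences below are VM minus the other model, on the log2(units + 1) scale, with VIM given before MYC. No explanation was tested.

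Of the 25 genes, 14 were lower in VM. The differences were -8.32 and -7.45 for Col4a1, -5.35 and -4.83 for Col4a2, -10.03 and -11.35 for Lox, -7.20 and -12.09 for Acta2, and -5.48 and -9.08 for Myl9. They were -3.67 and -3.89 for Pdgfrb, -4.18 and -4.46 for Snai2, -5.49 and -5.10 for Twist1, and -9.55 and -5.59 for Has2. For Lox, Snai2, Twist1 and Has2 the differences from VIM are not independent evidence. The study had already reported these genes as differing between the VM and VIM cell lines. Pdgfrb did not differ from either model with weights for cells and tumours (adjusted p = 0.131 and 0.128).

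The other lower ones were at -5.45 and -5.73 for Ephx1, -2.13 and -4.20 for Gsta4, -4.31 and -3.32 for Ifitm3, -2.25 and -6.99 for Pth1r, and -2.51 and -1.92 for Spp1. With the weights the differences from VIM did not hold for Pth1r (adjusted p = 0.350) and Gsta4 (adjusted p = 0.0518).

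The other 11 were higher in VM, with differences of 6.68 and 4.66 for Epcam, 11.70 and 9.97 for Krt7, 6.81 and 5.75 for Esrp1, 8.63 and 5.75 for Dsg1a, and 1.05 and 1.12 for Podxl. They were 6.60 and 8.04 for Sox2, 6.44 and 5.50 for Osr2, 8.89 and 5.67 for Sim1, 11.71 and 8.03 for Peg3, 9.34 and 6.96 for Iapp, and 5.26 and 5.59 for Igj. With the weights Igj did not differ from either model (adjusted p = 0.126 and 0.123), and Sim1 did not differ from MYC (adjusted p = 0.0689). Igj was at 1.75 units or less in the VM cells, so its difference lay in the tumours, where VIM ranged from 20.7 to 1224 units and MYC from 16.9 to 991.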

How the results depend on the processing

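No paired analysis was possible because the cell libraries are numbered 1 to 4 and the tumours carry only mouse numbers. Leaving out each library in turn gave 1828 to 2080 genes higher and 4282 to 4939 lower. Quantile normalization gave 3309 genes higher, and weights for cells and for tumours gave 1033 genes for VM against VIM and 1268 for VM against MYC. The other settings stayed within 1.5 times of these counts over all genes. Counts within the gene lists moved further: 17 of 56 did so under at least 1 setting with Dox, and all but the counts of lower basement membrane and interferon genes were 5 or fewer as reported.

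Of 155 named genes, 118 passed. Under every setting with Dox, reversed signs were met only in genes that did not pass: Cdkn2a (0.12 with TMM, 0.06 with voom, 0.12 with edgeR), Mcam (0.16 with TMM, 0.32 with quantile normalization, 0.12 with voom, 0.12 with edgeR), Twist1 (0.43) and Igj (0.10) with quantile normalization, and Phlda3 (-1.42) and Car9 (-0.91) with edgeR. When single libraries were left out, ranges crossed 0 for Cdh1 (-0.12 to 0.71), Twist1 (-1.40 to 0.07), Mcam (-0.22 to 0.29), Actg1 (-0.04 to 0.28), B2m (-0.04 to 0.54), Havcr1 (-0.88 to 0.18), Zmat3 (-1.44 to 0.46), Phlda3 (-0.60 to 2.57), Cdkn1a (-1.57 to 0.67), Lama5 (-0.09 to 0.40), Lamb1 (-0.14 to 0.63) and Vegfa (-0.03 to 0.09).

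Cells without Dox, set against the same tumours, gave the opposite sign for Myc (1.35), Cdkn2a (0.37), Cdh1 (-0.20), Loxl2 (0.49), Has2 (0.23), Synpo (0.94), Pax8 (0.67), Pard6b (0.04), Birc5 (-0.04), Pcna (-0.24), Npm1 (-1.60), Ldha (-0.08), Hadha (0.28), Havcr1 (1.94), Cdkn1a (0.40) and Lamc1 (-0.06). Of these, Loxl2 and Synpo had passed as lower with Dox. The causes were not tested.

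Among these 155 genes, calls lost with Dox were those of Vhl with quantile normalization and of Eda2r with a pseudocount of 10 units (-3.25), quantile normalization (-2.77), voom (-4.25) and without cell library 3 (-4.17). Of list members the text names besides these, Aqp1 (1.18), Ccnd1 (1.57) and Lamb3 (1.21) lost their calls without any 1 cell library and Aqp1 and Ccnd1 also without the trend in moderation. Adipoq (-2.06), Cnn1 (1.67) and Csf1r (-1.04) lost theirs in several settings. Krt8 lost its call with voom (-4.53), Ptprc with quantile normalization (-0.45) and Ncl without the tumour of mouse 2459 (0.95). Lama1 lost its call under 4 rescalings or count tests. The test took 1 spread per gene over both groups, although the 3 tumours vary more than the 4 libraries of a single line. The p-values may therefore be too small. With weights for cells and for tumours 5609 genes passed in place of 6473, with 1743 higher and 3866 lower. A level at or under 3 reads is not an absence.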
